A study of Saccharomyces cerevisiae with 4 samples.

Results

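The genes described here encode the enzymes that build chorismate and tryptophan in budding yeast (Saccharomyces cerevisiae): ARO1, ARO2, ARO3, ARO4 and ARO7, and TRP1, TRP2, TRP3, TRP4 and TRP5. They were chosen by name, as a pathway, because auxin is an indole compound, and the 10 genes were all found among the 6459 gene rows of the data. All 10 passed the filter on low counts. The strain, ESS1-AID, has the BY4741 background and 2 modified loci in its labelled genotype. The first, HIS3::ADH1-OsTIR19Myc, gives the plant auxin receptor OsTIR1 from the ADH1 promoter. The second, written ESS1AID 71-114-6Flag::hphB, puts a degron on Ess1, a prolyl isomerase of RNA polymerase II, so that auxin leads to its breakdown. Cultures in rich medium (YPD) at mid-log phase received the auxin indole-3-acetic acid (IAA, 2 mM) or its solvent DMSO, both for 3 h. There were 2 IAA libraries and 2 DMSO libraries, biological replicates by the submitters' account. Both groups carry the degron and OsTIR1, and no group without them was analysed here, so effects of IAA itself and of losing Ess1 cannot be told apart.

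Aromatic amino acids are made from phosphoenolpyruvate and erythrose 4-phosphate through the shikimate pathway, which ends in chorismate. Chorismate is then split between a branch to phenylalanine and tyrosine and a branch to tryptophan, in which indole is formed and joined to serine. In yeast most of these genes are activated by Gcn4, the transcription factor of general amino acid control, and the first enzymes of each branch are regulated by the amino acids at the ends of the pathway. Indole-3-acetic acid shares its indole ring with tryptophan, from which plants make it.

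The libraries held 33589128 and 33625232 estimated counts in IAA, against 26046702 and 27609311 in DMSO. Of the markers deleted in BY4741, LEU2, URA3 and MET17 had 0 counts in all 4 libraries, and HIS3, which the genotype names with the OsTIR1 construct, had 989 and 444 CPM in IAA and 777 and 362 CPM in DMSO (counts as a share of the library, after scaling by the trimmed mean of M-values, TMM). TRP1, which this background retains, was present in all 4 libraries. ESS1 mRNA was at 6.70 and 7.92 CPM in IAA and 5.15 and 5.31 CPM in DMSO. It was called higher in IAA in the edgeR test described below (log2 fold change 0.48, SE 0.127, edgeR adjusted p = 0.0109). The degron acts on the protein, which these files do not measure.

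The pathway genes did not move in one direction. The last enzyme of the tryptophan branch, TRP5, rose most, ARO4, ARO1, TRP4, TRP3 and TRP1 rose less, ARO3 and ARO7 fell, and ARO2 and TRP2 were not called. Thus 8 of the 10 genes were called in the edgeR quasi-likelihood test at a Benjamini-Hochberg adjusted p under 0.05 over 5799 genes, where 58.3% of all tested genes were called. Of these, 6 were higher and 2 lower in IAA, against 28.7% and 29.6% of all tested genes. The median log2 fold change of IAA over DMSO was 0.20 over the 10 genes and -0.0036 over all tested genes. All members changed by less than 1.5-fold, and 5 of the 10 were both called and changed at least 1.2-fold, against 37.5% of all genes. The groups did not overlap for 9 of the 10 genes, a property shared by 81.5% of all genes. Scaling matters at this size of change: with scaling by library size alone the median of all genes moved by -0.104, genes higher in IAA made up 31.1% of calls in place of 49.3%, and 4 members were called higher and 3 lower. In RNA from whole cultures, a change of RNA per cell and a change in the share of cells that express a gene cannot be told apart.

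**Figure D1:**
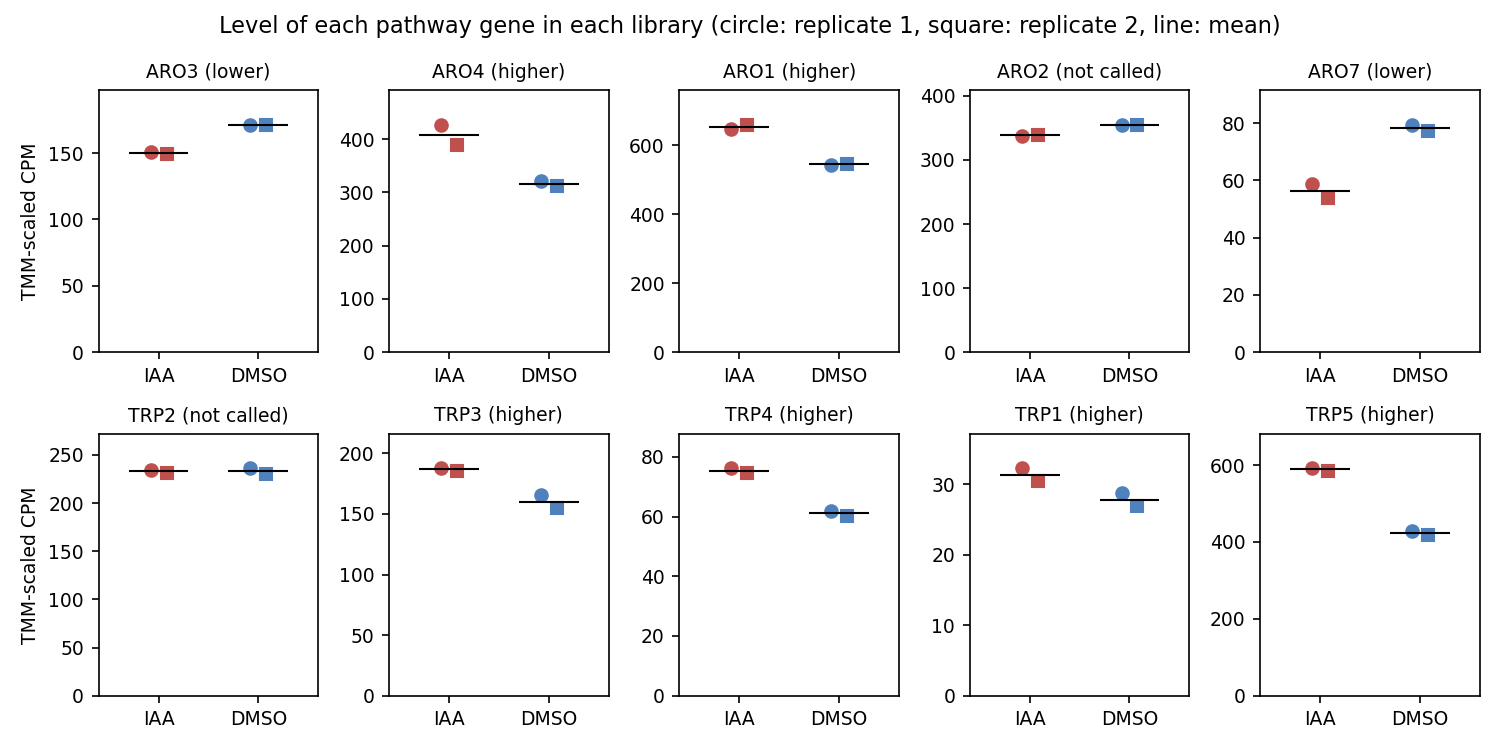
Level of each pathway gene in TMM-scaled CPM, with 2 IAA libraries left and 2 DMSO libraries right (circle, replicate 1; square, replicate 2; line, mean); the word beside each name is the edgeR call. TRP5 shows the widest gap upwards in IAA and ARO7 the widest downwards, and for TRP2 the groups overlap.

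The first step, joining phosphoenolpyruvate to erythrose 4-phosphate, is made by DAHP synthase, for which yeast has a pair of isoenzymes, Aro3 inhibited by phenylalanine and Aro4 inhibited by tyrosine. Their genes went opposite ways. ARO4 (YBR249C, chromosome II, 716882 to 717994 of build R64, minus strand) had 427 and 389 CPM in IAA, against 321 and 313 CPM in DMSO. Both IAA libraries were above both DMSO libraries, although the IAA replicates lay further apart than those of any other member relative to one another. ARO4 rose 1.29-fold (log2 fold change 0.37, SE 0.0523, edgeR adjusted p = 0.00055). ARO3 (YDR035W, chromosome IV, 521816 to 522928, plus strand) had 151 and 149 CPM in IAA, against 171 and 171 CPM in DMSO, so that both IAA libraries were below both DMSO libraries. ARO3 fell by 0.19 on the log2 scale (SE 0.0424, edgeR adjusted p = 0.00503).

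Within a library the ratio of ARO4 to ARO3 does not depend on how libraries are scaled. It was 2.83 and 2.61 in IAA and 1.87 and 1.82 in DMSO on the FPKM scale, so the groups did not overlap and the mean ratio was 1.47 times as high in IAA. With 2 libraries a group the most extreme split makes up 2 of the 6 regroupings of an exact two-sided permutation test, which therefore cannot pass the threshold, so the ratio was not tested. Both coding sequences are 1113 bases long, and their predicted products of 370 residues each are 63.1% identical over 360 aligned positions. At the DNA level the aligned codons are 65.1% identical with no shared run over 17 bases, and the estimated counts of all 10 members were whole numbers in each library, with no sign of reads divided between these genes and other loci. The 300-base windows around the starts of both genes (250 bases before the start codon and 50 from it on, RefSeq sequence of R64, read along the gene) are given because the isoenzyme genes went opposite ways. The Gcn4 letters described further on would stand in capitals, and neither window holds them.
ARO4 (chrII:717945-718244, minus strand): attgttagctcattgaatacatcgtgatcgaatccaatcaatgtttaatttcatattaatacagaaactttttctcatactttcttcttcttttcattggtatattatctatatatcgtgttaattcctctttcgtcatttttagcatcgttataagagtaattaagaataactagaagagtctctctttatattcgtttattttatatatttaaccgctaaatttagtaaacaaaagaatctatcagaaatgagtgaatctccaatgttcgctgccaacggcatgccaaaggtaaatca
ARO3 (chrIV:521566-521865, plus strand): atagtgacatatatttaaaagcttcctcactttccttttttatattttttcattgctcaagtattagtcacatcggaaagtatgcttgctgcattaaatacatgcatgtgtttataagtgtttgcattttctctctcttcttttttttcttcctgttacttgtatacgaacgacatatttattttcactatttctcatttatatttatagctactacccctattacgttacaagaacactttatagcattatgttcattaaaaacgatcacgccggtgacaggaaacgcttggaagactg

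The steps from DAHP to chorismate are carried out by Aro1, a single polypeptide with several enzyme activities, and by Aro2, chorismate synthase. ARO1 (YDR127W, chromosome IV, 704484 to 709250, plus strand) had 647 and 660 CPM in IAA, against 542 and 546 CPM in DMSO. Both IAA libraries were above both DMSO libraries, and the gene rose (log2 fold change 0.26, SE 0.0398, edgeR adjusted p = 0.000727). ARO2 (YGL148W, chromosome VII, 226399 to 227529, plus strand) had 338 and 339 CPM in IAA, against 354 and 355 CPM in DMSO. The groups did not overlap, but the log2 fold change of -0.07 (SE 0.0394) was not called (edgeR adjusted p = 0.175). With scaling by library size it was -0.17 and was called lower (adjusted p = 0.00635; 0.00635 to 0.505 over the alternatives). Of the 4 genes of the common pathway 2 were thus higher, 1 lower and 1 not called, with ARO3 and ARO4 at the extremes. Called genes made up 75% of these 4, against 58.3% of all tested genes.

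Chorismate mutase, Aro7, takes chorismate into the branch to phenylalanine and tyrosine and is activated by tryptophan and inhibited by tyrosine. ARO7 (YPR060C, chromosome XVI, 674861 to 675631, minus strand) had 58.9 and 53.8 CPM in IAA, against 79.5 and 77.2 CPM in DMSO. Both IAA libraries were below both DMSO libraries, and the fall was the largest among the members, to 0.719 of the DMSO level (log2 fold change -0.48, SE 0.0573, edgeR adjusted p = 0.000244). In size it exceeded 84.0% of all tested genes.

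The tryptophan branch begins with anthranilate synthase, a complex of Trp2, the subunit that tryptophan inhibits, and Trp3, which supplies ammonia from glutamine and also holds indole-3-glycerol phosphate synthase. TRP2 (YER090W, chromosome V, 337949 to 339472, plus strand) had 235 and 231 CPM in IAA, against 236 and 230 CPM in DMSO. The groups overlapped, and the fitted ratio was 0.999 (SE 0.0418 on the log2 scale, edgeR adjusted p = 0.988). In FPKM, which divides by the library total, TRP2 stood at 173 in both IAA libraries and at 187 and 183 in DMSO. TRP3 (YKL211C, chromosome XI, 36699 to 38153, minus strand) had 188 and 186 CPM in IAA, against 165 and 155 CPM in DMSO, with no overlap. It rose 1.17-fold (log2 fold change 0.22, SE 0.0476, edgeR adjusted p = 0.00431). The call was lost with scaling by library size (adjusted p = 0.0652), in FPKM, and without DMSO replicate 2 (adjusted p = 0.07; 0.00064 to 0.07 over the alternatives). The ratio of TRP3 to TRP2 in FPKM was 0.846 and 0.849 in IAA and 0.739 and 0.712 in DMSO, and the groups did not overlap.

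Trp4 adds a phosphoribosyl group to anthranilate and Trp1 isomerises the product. TRP4 (YDR354W, chromosome IV, 1184747 to 1185889, plus strand) had 76.2 and 74.5 CPM in IAA, against 61.9 and 60.3 CPM in DMSO. Both IAA libraries were above both DMSO libraries and TRP4 rose 1.23-fold (log2 fold change 0.30, SE 0.0479, edgeR adjusted p = 0.000917). TRP1 (YDR007W, chromosome IV, 461842 to 462516, plus strand), the gene widely used as a selection marker in other strains, had 32.3 and 30.4 CPM in IAA, against 28.8 and 26.8 CPM in DMSO. The groups were close without overlapping, and its 1.13-fold rise was just inside the threshold (log2 fold change 0.17, SE 0.066, edgeR adjusted p = 0.0494). TRP1 had the lowest counts of all members, between 768 and 1041 a library, and was called in 5 of the 15 alternatives that give a p (adjusted p 0.0235 to 0.378). It was not called with DESeq2 (adjusted p = 0.156), and leaving out 1 library lost the call for IAA replicate 1 (adjusted p = 0.164), DMSO replicate 1 (adjusted p = 0.0596) and DMSO replicate 2 (adjusted p = 0.285).

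Trp5, tryptophan synthase, releases indole and joins it to serine. TRP5 (YGL026C, chromosome VII, 446412 to 448535, minus strand) had 592 and 586 CPM in IAA, against 427 and 419 CPM in DMSO. The IAA libraries stood well above the DMSO libraries with a small spread in each group. TRP5 rose 1.39-fold (log2 fold change 0.48, SE 0.0401, edgeR adjusted p = 5.4e-05), which exceeded 84.1% of all tested genes in size. The ratio of TRP5 to TRP2, the last against the first step of the branch, was 1.73 in both IAA libraries and 1.24 and 1.25 in DMSO. Of the 5 genes of the branch 4 were higher, 0 lower and 1 not called, with a median log2 fold change of 0.22, against 28.7% higher and 29.6% lower among all tested genes. With scaling by library size TRP4 and TRP5 were the only 2 of the branch still called.

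At the branch point itself, where Aro7 and anthranilate synthase draw on the same chorismate, the ratio of ARO7 to TRP2 in FPKM was 0.598 and 0.557 in IAA, against 0.794 in both DMSO libraries. The groups did not overlap, and the mean ratio in IAA was 0.727 of that in DMSO. Choosing ARO7, TRP2, TRP3 and TRP5 for these ratios was done with their values known. The genes of each pair differed in their own changes, so the ratios restate those changes and are no further support. The share of all gene pairs that separate was not computed.

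**Figure D2:**
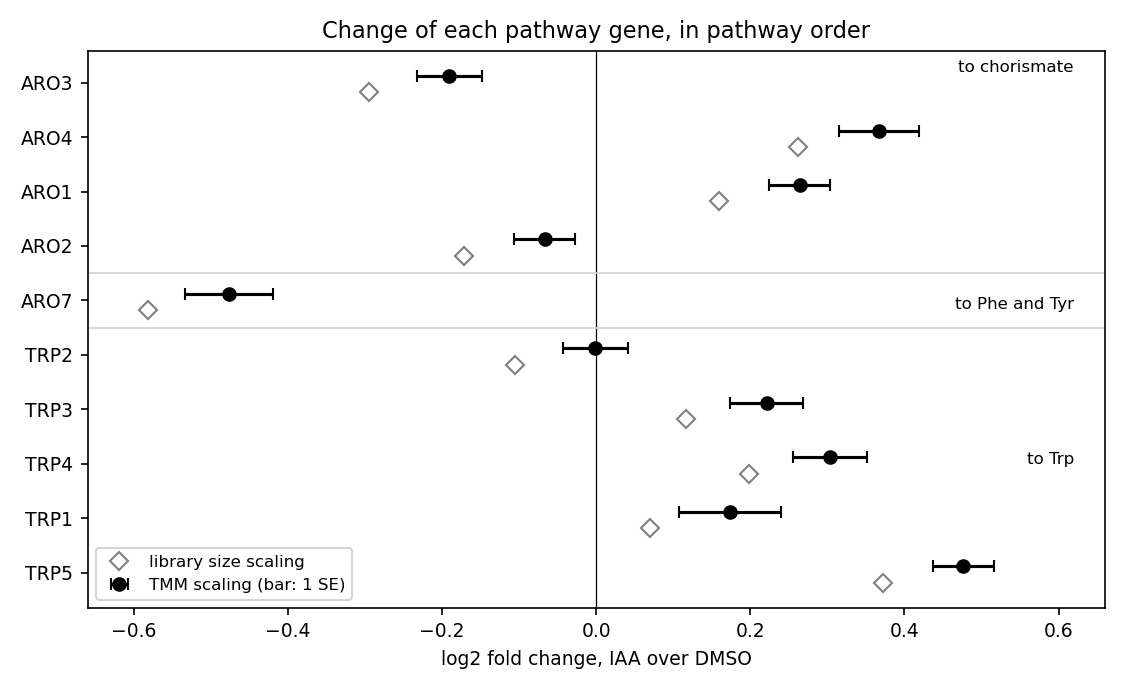
Log2 fold change of IAA over DMSO for each pathway gene in pathway order, from the edgeR fit with TMM scaling (filled circles, bars 1 SE) and with scaling by library size (open diamonds). Library size scaling moves every gene to the left by about the same amount, which takes TRP1 and TRP3 out of the calls and brings ARO2 in as lower, while TRP5, ARO4, ARO1 and TRP4 remain higher and ARO3 and ARO7 lower.

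**Figure D3:**
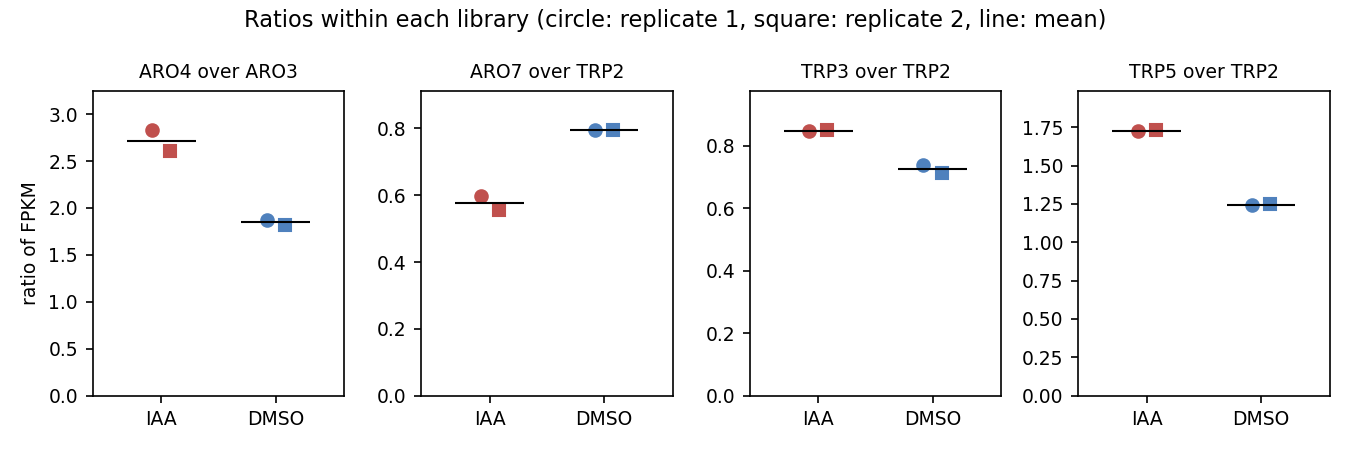
Ratios of FPKM between pairs of pathway genes within each library, with IAA left and DMSO right (circle, replicate 1; square, replicate 2; line, mean). In each of the 4 pairs the IAA and DMSO libraries do not overlap. The pairs set genes whose own changes differed, so the ratios restate those changes. ARO4 over ARO3 is 2.83 and 2.61 in IAA and 1.87 and 1.82 in DMSO.

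Levels among the members are given in the deposited FPKM, which correct for length. The length used was mostly shorter than the gene, by a median of 216 to 231 bases, which raises short genes most. In IAA, ARO4 was the most abundant at 445 ± 24.5 FPKM (mean ± SD, n = 2), followed by ARO2 at 362 ± 5.08 and TRP5 at 300 ± 0.269. TRP2 (173 ± 0.106), ARO3 (164 ± 0.325), TRP3 (147 ± 0.276), ARO1 (139 ± 2.87) and ARO7 (100.1 ± 5.03) lay in the middle, and TRP4 (79.5 ± 0.424) and TRP1 (67.7 ± 1.83) were the least abundant. In DMSO, ARO2 led at 403 ± 1.94 FPKM, before ARO4 (367 ± 5.95), TRP5 (230.2 ± 2.87), ARO3 (198 ± 0.495) and TRP2 (185 ± 3.28). ARO7 (147 ± 2.53), TRP3 (134 ± 5.9) and ARO1 (124 ± 0.608) followed, with TRP4 (68.5 ± 1.08) and TRP1 (63.1 ± 2.8) again last. On this scale no neighbours in either order overlapped between their libraries. The span from the lowest to the highest member was 6.58-fold in IAA and 6.38-fold in DMSO. On this scale the exchanges of place were ARO4 above ARO2, TRP2 above ARO3, and ARO7 below TRP3 and ARO1 in IAA. With TMM-scaled CPM over the full coding length, the mean ratio to TRP2 in DMSO was 0.6645 for ARO7 and 0.72 for TRP3. In IAA these ratios were 0.478 and 0.8403. By full length ARO7 thus lay below TRP3 in both groups, so their exchange depended on the length used. The rest of the order was not computed by full length.

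**Figure D4:**
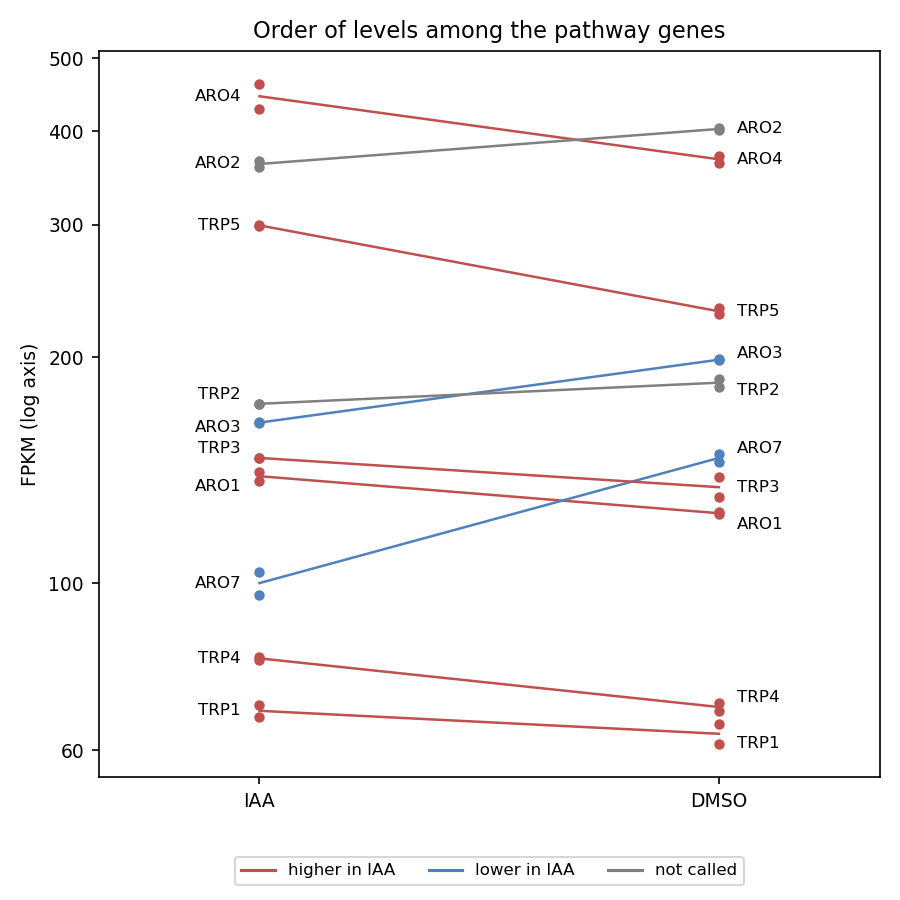
FPKM of each pathway gene (log axis) in the IAA libraries, left, and the DMSO libraries, right; points are libraries, lines join group means, and colour gives the edgeR call. In FPKM, ARO4 and ARO2 change places at the top, and TRP4 and TRP1 are lowest in both groups. ARO7 lies below TRP3 and ARO1 in IAA and above both in DMSO. The place of ARO7 depends on the length used, since by full coding length it was below TRP3 in DMSO as well.

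The members lie on several chromosomes, 4 of them on chromosome IV, and none overlaps another annotated gene. The closest neighbour was YMC1, 186 bases from ARO7. Of their 20 flanking genes 18 were tested, of which 4 were higher, 8 lower and 6 not called in IAA, where 28.7% of all tested genes were higher and 29.6% lower. Beside the 8 called members, 2 of 14 tested neighbours were called in the member's direction and 7 in the opposite one. TRP5, for example, lies between PGD1 (log2 fold change -0.41, SE 0.0539, edgeR adjusted p = 0.000353) and CWH41 (-0.17, SE 0.0421, adjusted p = 0.00843), on the same strand as both. ARO4 lies before HIS7, a histidine synthesis gene on the same strand that fell by 0.30 on the log2 scale (SE 0.0461, adjusted p = 0.000771). YMC1, which faces ARO7 from the other strand, rose by 0.43 on the log2 scale (SE 0.0587, adjusted p = 0.000442). The 2 neighbours called in their member's direction were SPO23 and SWF1. SPO23, 1038 bases before ARO4 on the other strand, rose by 0.80 (SE 0.144, adjusted p = 0.0018). SWF1, 239 bases before ARO1 on the same strand, rose by 0.37 (SE 0.077, adjusted p = 0.00387). The library kit keeps the strand, but no source used here says whether the counting did, so reads of facing neighbours may be mixed.

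Gcn4 binds the sequence TGACTCA, and the 6 letters TGACTC were searched on both strands (GAGTCA on the other) of the same 300-base windows. They were found in 4 of the 10 members' windows (40.0%), against 7.98% of 6001 nuclear coding genes, and the 7-letter TGACTCA or TGAGTCA in 3 of 10, against 2.73%. The members were chosen by name as a pathway, and that pathway is already known for Gcn4 control, so this share is a description. Only exact matches were searched, so a window without one may still hold a variant of these letters. The matches are shown with 10 bases on either side, with the 6 letters in capitals, because they are the letters that ARO1, TRP2, TRP3 and TRP4 have in common.
ARO1 (chrIV:704251-704276, plus strand): gtcatgcataTGACTCatcccgaaca
TRP2 (chrV:337777-337802, plus strand): agtgatttgcTGACTCattacgattt
TRP2 (chrV:337971-337996, plus strand): aaccggatatTGACTCtctaaagcaa
TRP3 (chrXI:38261-38286, minus strand): aatggctcgtTGACTCattctaatct
TRP4 (chrIV:1184572-1184597, plus strand): ctacgcagatTGACTCtctaaaaaat
The 6 letters begin 223 bases before the start codon in ARO1, 162 in TRP2, 123 in TRP3 and 165 in TRP4, and the second match in TRP2 lies inside the coding sequence. In ARO1 and TRP3 and at the first TRP2 match they extend to the 7 letters. Of the 4 genes with a match before the start codon, 3 were higher and 1 not called in IAA. Among all tested genes 28.7% were higher and 29.6% lower. Sets of 4 and 6 genes are too small to compare, and a link between the letters and the changes was not tested. Of the 6 without a match, 3 were higher, 2 lower and 1 not called, among them both the largest rise, TRP5, and the largest fall, ARO7. Their windows are given for that reason.
TRP5 (chrVII:448486-448785, minus strand): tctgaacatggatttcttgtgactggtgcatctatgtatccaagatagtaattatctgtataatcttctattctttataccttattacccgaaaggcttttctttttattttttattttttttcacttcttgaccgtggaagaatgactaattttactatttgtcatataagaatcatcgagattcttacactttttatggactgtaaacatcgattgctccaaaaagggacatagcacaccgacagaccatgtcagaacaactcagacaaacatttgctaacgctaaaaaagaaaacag
ARO7 (chrXVI:675582-675881, minus strand): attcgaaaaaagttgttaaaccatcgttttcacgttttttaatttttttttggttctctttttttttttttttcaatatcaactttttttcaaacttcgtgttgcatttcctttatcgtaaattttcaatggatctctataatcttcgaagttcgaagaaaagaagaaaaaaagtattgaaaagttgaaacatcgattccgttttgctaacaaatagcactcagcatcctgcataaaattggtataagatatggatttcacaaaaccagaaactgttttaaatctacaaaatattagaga

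The enzymes after Aro7, and genes that use, import or regulate aromatic amino acids, were read from the same test in 9 further lists of 93 genes in all. The lists were chosen with earlier results of these data known, so their shares beside those of all genes are descriptions. Together they had 33 genes higher and 23 lower in IAA, or 60.2% called, against 58.3% of all tested genes. None of the 4 genes that lead to phenylalanine and tyrosine was higher and 2 were lower, against 28.7% and 29.6% of all tested genes. PHA2, prephenate dehydratase of the phenylalanine arm, fell to 23.4 and 23.5 CPM in IAA, against 29.8 and 28.8 CPM in DMSO (log2 fold change -0.32, SE 0.0597, edgeR adjusted p = 0.00214). TYR1, prephenate dehydrogenase of the tyrosine arm, had 66.4 and 63.5 CPM in IAA and 67.0 and 63.5 CPM in DMSO, and was not called (adjusted p = 0.927). Of the aromatic aminotransferases, ARO9 fell by 0.17 on the log2 scale (SE 0.0533, adjusted p = 0.0221) and ARO8, the more abundant at 533 CPM in IAA and 497 CPM in DMSO on average, was not called (adjusted p = 0.0677).

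Aro9 and Aro10 also break down aromatic amino acids to fusel alcohols by the Ehrlich route, under the activator Aro80, which responds to aromatic amino acids. ARO10 had 66.8 and 73.8 CPM in IAA, against 75.7 and 83.7 CPM in DMSO, so the groups were close, and its log2 fold change of -0.18 was near the threshold (SE 0.0668, edgeR adjusted p = 0.0439). ARO9 and ARO10 were not called with DESeq2 (adjusted p = 0.0579 and 0.0636) or without DMSO replicate 2 (adjusted p = 0.244 and 0.295), and ARO10 also not without IAA replicate 1 (adjusted p = 0.151), without a filter on low counts (0.065) or with a minimum mean of 10 CPM (0.0613). ARO80 itself was at 49.7 and 49.8 CPM in IAA and 45.7 and 48.0 CPM in DMSO and was not called (adjusted p = 0.213). In the list of 7 breakdown genes, 3 were higher and 1 lower, or 57.1% called against 58.3% of all tested genes. The higher ones were the pyruvate decarboxylase genes PDC1 (1.26-fold) and PDC6 (2.10-fold, at 3.38 and 3.28 CPM in IAA against 1.48 and 1.68 CPM in DMSO) and the alcohol dehydrogenase gene ADH5 (1.23-fold; not called with scaling by library size, adjusted p = 0.0665, or in FPKM), all of which belong to families that act in fermentation. Once a trend of the log2 fold change with level and coding length over all coding genes was removed, PDC1 stood at -0.02 in place of 0.33 and PDC6 at 0.42 in place of 1.07, and the median of the list at -0.01 in place of 0.10.

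Genes for uptake of aromatic amino acids were mostly higher, with 5 of 6 higher, against 28.7% of all tested genes, and a median log2 fold change of 0.37. TAT2, the high-affinity tryptophan permease, had 157 and 150.3 CPM in IAA, against 127 and 130.4 CPM in DMSO, and rose 1.19-fold (log2 fold change 0.25, SE 0.0463, edgeR adjusted p = 0.00188). TAT1, which carries tyrosine and with lower affinity tryptophan, rose 1.56-fold (log2 fold change 0.64, SE 0.0913, adjusted p = 0.00055), but its estimated counts had decimals, a sign of reads shared with another locus, and the value is uncertain. The broad-range permease AGP1 rose 1.66-fold (log2 fold change 0.73, SE 0.0599, adjusted p = 4.9e-05) and the branched-chain permease BAP2, which also takes up aromatic amino acids, 1.39-fold (log2 fold change 0.47, SE 0.0526, adjusted p = 0.000171). These 4 permease genes were also called higher with scaling by library size.

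Tryptophan is consumed on the way to NAD by the kynurenine pathway, and its first enzyme, the dioxygenase Bna2, stood apart from the rest of that list. BNA2 had 24.1 and 24.2 CPM in IAA, against 12.7 and 11.4 CPM in DMSO, a 2.00-fold rise (SE 0.0764 on the log2 scale, edgeR adjusted p = 3.89e-05). Of the other genes of this 7-gene list 4 were lower and 2 not called, where 29.6% of all tested genes were lower. Log2 fold changes were -0.35 for BNA5, kynureninase (SE 0.0514, adjusted p = 0.000678), and -0.22 for BNA6 (SE 0.057, adjusted p = 0.0114). BNA6 was not called without DMSO replicate 1 (adjusted p = 0.0818), and was at -0.13 with the trend with level and length removed. In the list of other uses of chorismate, the p-aminobenzoate genes differed. Their log2 fold changes were 0.18 for ABZ1 (SE 0.0435, adjusted p = 0.00828) and -0.24 for ABZ2 (SE 0.0552, adjusted p = 0.00556). ABZ1 was not called with scaling by library size (adjusted p = 0.195), in FPKM, or without DMSO replicate 1 or 2 (adjusted p = 0.0504 and 0.0876). COQ2, of the same list, had a log2 fold change of 0.40 (SE 0.0689, adjusted p = 0.00134). Its enzyme joins the ubiquinone ring to its tail and does not act on chorismate itself. Of the 7 genes that charge tRNA with aromatic amino acids 28.6% were called, against 58.3% of all tested genes. None was higher and 2 were lower. These were WRS1, the cytosolic tryptophanyl-tRNA synthetase, with a log2 fold change of -0.22 (SE 0.0412, adjusted p = 0.00231), and MSW1, its mitochondrial counterpart, at -0.34 (SE 0.0636, adjusted p = 0.00206). FRS1, a subunit of the phenylalanyl-tRNA synthetase, had a log2 fold change of -0.10 (adjusted p = 0.0625) and was called lower with scaling by library size (adjusted p = 0.00241).

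Genes that supply precursors were split. Of 14, 4 were higher and 2 lower, or 42.9% called against 58.3% of all tested genes. SER3, phosphoglycerate dehydrogenase of the serine that Trp5 uses, rose 2.32-fold, with 187 and 182 CPM in IAA and 77.0 and 81.6 CPM in DMSO (log2 fold change 1.22, SE 0.0488, edgeR adjusted p = 4.35e-06). Of the other serine genes in the list, SER33 rose by 0.33 on the log2 scale (SE 0.0432, adjusted p = 0.000381). SER2 fell by 0.36 (SE 0.0479, adjusted p = 0.000421) and SER1 was not called (adjusted p = 0.424). PRS3, of the synthase that makes the phosphoribosyl donor of Trp4, fell by 0.58 on the log2 scale (SE 0.0431, adjusted p = 3.47e-05), and PRS1, PRS2, PRS4 and PRS5 were not called. TKL2, a minor transketolase, rose 1.54-fold (log2 fold change 0.63, SE 0.0684, adjusted p = 0.000161), and stood at 0.36 once the trend with level and length was removed.

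In the general amino acid control list of 8 genes, 4 were higher and 2 lower, or 75% called against 58.3% of all tested genes. GCN4 mRNA had 823 and 825 CPM in IAA, against 641 and 655 CPM in DMSO, a 1.27-fold rise (log2 fold change 0.35, SE 0.0396, edgeR adjusted p = 0.000191). Gcn4 is controlled mainly at translation, which these data do not measure. YIH1, an inhibitor of Gcn2 activation, had a log2 fold change of 0.34 (SE 0.0617, adjusted p = 0.00192) and BAS1, an activator of purine and histidine genes, one of -0.30 (SE 0.0433, adjusted p = 0.0006). The other Gcn4-controlled genes of amino acid synthesis also went both ways, with 14 of 37 higher and 9 lower, or 62.2% called against 58.3% of all tested genes, and a median log2 fold change of 0.04, between HIS6 at -0.59 and LYS5 at 0.57. HOM6 (log2 fold change 0.49, SE 0.0412, adjusted p = 5.3e-05) and LEU4 (0.43, SE 0.0438, adjusted p = 0.000122) were among the higher ones. The TGACTC letters were in 56.8% of the windows of this list, against 7.98% of all nuclear coding genes. They were in 57.1% of the windows of the kynurenine list, and in 28.6% or less in each other related list.

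**Figure D5:**
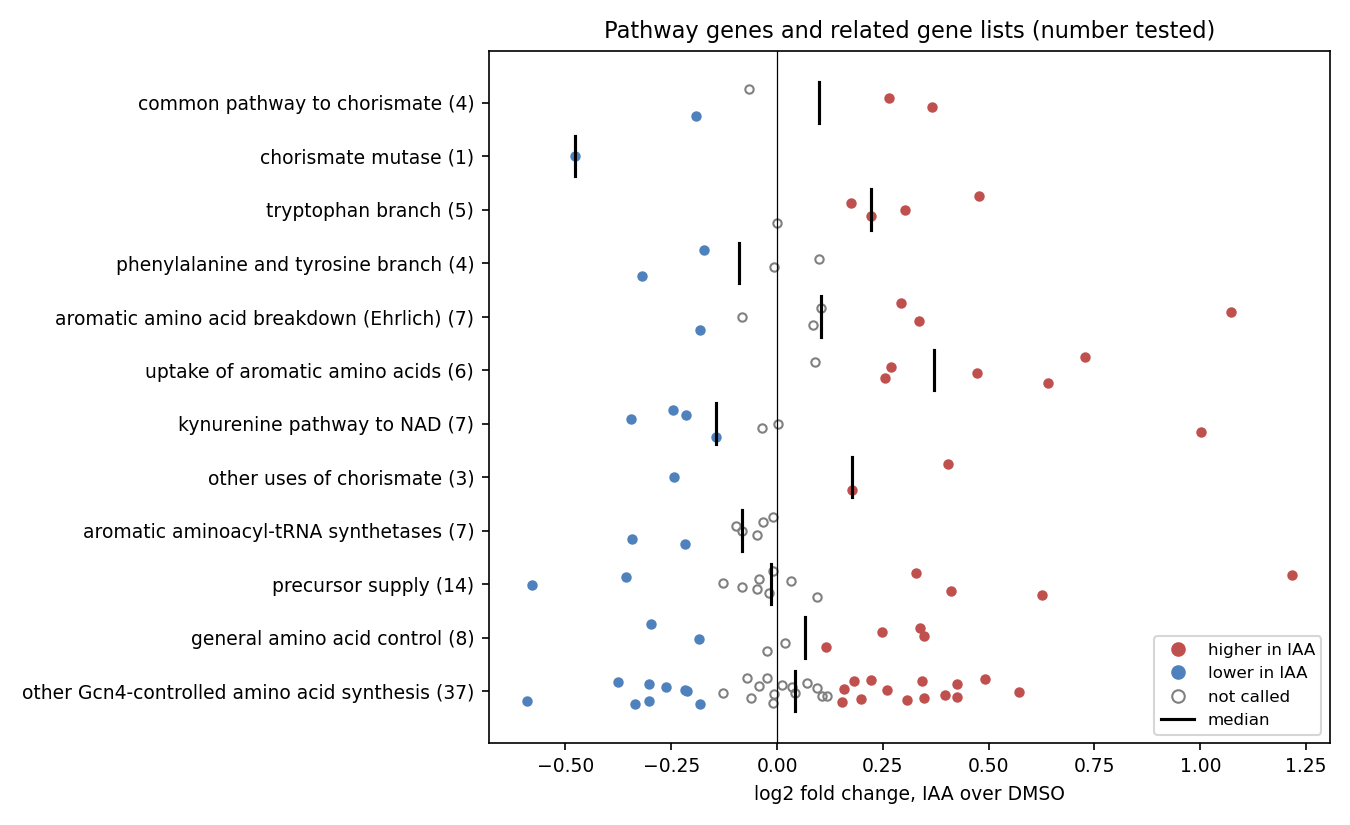
Log2 fold change of IAA over DMSO for the pathway genes (top 3 lines) and for 9 related lists, with 1 point a gene, coloured by edgeR call, and a black line at each median. The uptake list and the tryptophan branch lie mostly to the right of 0, the synthetase list lies wholly to the left, and the Gcn4-controlled list spreads on both sides.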

How the data were processed

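RNA-seq was made from total RNA with a directional library kit, per the labels' protocols. Expected counts from RSEM and, in a second table, FPKM values were deposited by the authors; the submitters' processing notes name STAR 2.7.10a, RSEM 1.3.3, DESeq2 and genome build R64 without their roles. Over the 2582 to 2885 genes a library with more than 2000 counts, the deposited FPKM values were mostly those of counts over the library total and over a length shorter than the gene by a median of 216 to 231 bases, with 93.4% to 93.9% of these genes within 2 bases of that median. Names, positions and windows came from RefSeq R64, which matched 6456 of 6459 row names.

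Expected counts were rounded. edgeR 4.0.16 in R 4.3.3 (default filterByExpr, TMM factors 0.960 to 1.04, glmQLFit, glmQLFTest) compared IAA with DMSO without covariates over 5799 genes, and p-values were adjusted by Benjamini-Hochberg. The standard error is the log2 fold change over the square root of F. Alternatives were DESeq2 1.42.0, limma 3.58.1 on voom and FPKM values, other scalings and filters, each library left out, and a replicate block. Library totals of 26046702 to 33625232 limit the precision of low genes. With no statement that cultures were separate beyond the word biological, p-values measure the spread between these libraries. Identity was computed with Biopython 1.88 on translated coding sequences. Members and lists were chosen with earlier results of these data known. Named genes are all 10 members, 11 fixed related genes and, in each list, up to 3 with the lowest adjusted p. Neighbours, the other serine and PRS genes, the 2 ends of the Gcn4-controlled list and marker genes of the strain were added after their values were seen.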

Additional observations from a re-analysis of the deposited data

How the results depend on the processing

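TRP2 was the only member to change sign in an alternative, and TRP5, ARO4, ARO1, TRP4, ARO3 and ARO7 were called in all 15 alternatives that give a p. TRP3 was called in 10 and TRP1 in 5 of them, and ARO2 in 4, while TRP2 was never called (adjusted p 0.0592 to 0.99). The main fit called 8 members, 56 genes of the related lists and 3380 of all genes. With DESeq2 these counts were 7, 48 and 2849, and with scaling by library size 7, 62 and 3632. Fits with a library left out are not in these counts. TRP2 lay on the other side of 0 with RLE scaling and DESeq2 (0.003 each), a minimum mean of 10 CPM (0.0188), without ribosomal DNA and transposon genes (7e-04), and without IAA replicate 2 or DMSO replicate 1 (-0.0205 to 0.0175 over the 4 libraries left out), and was at 0.0438 with the trend with level and coding length removed. Genes near 0 that changed sign were TYR1 (0.0135 at a minimum of 10 CPM, -0.0447 to 0.0325 with single libraries left out), ARO8 (-0.0047 with library size scaling) and ARO80 (-0.0186 with library size scaling, -0.0112 to -0.0117 in FPKM). The cause was not tested. Once a trend with level and coding length over all coding genes was removed, the median of the members was 0.26, with ARO7 at -0.38 and TRP5 at 0.50.

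The labels do not say what libraries of the same number share, and with 2 pairs the data do not settle it: deviations of replicate 1 from replicate 2 correlated at 0.239 between the groups over 5799 genes, and HIS3 differed between the replicates in the same direction in both groups. With the replicate number as a block, calls over all genes numbered 3708, against 3380 without it, 8 members were called as without it, and ARO8 and FRS1 were called as well (adjusted p = 0.0377 and 0.0437). The members' counts lay between 768 and 21488 a library, and TRP1, with the lowest, had the largest SE (0.066).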

Other observations

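HIS3, named in the genotype as the place of the OsTIR1 construct, differed between replicates within both groups. It had 989 CPM in IAA replicate 1 and 444 CPM in IAA replicate 2, and 777 CPM in DMSO replicate 1 and 362 CPM in DMSO replicate 2. The ratio of replicate 1 to replicate 2 was thus 2.23 in IAA and 2.14 in DMSO. Of the 5086 genes that averaged 10 CPM or more, only 3 differed at least 1.5-fold between replicates in the same direction in both groups, HIS3 and the subtelomeric YHL049C and YHR219W. For the aromatic pathway genes the same ratio lay between 0.981 and 1.1 in IAA and between 0.993 and 1.07 in DMSO. HIS3 was chosen here after its values were seen, and whether the replicates differ in their construct was not tested.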
